A study of Mus musculus with 15 samples.

Results

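The 10 genes described here belong to trophoblast, the lineage that forms the placenta, and were followed in mouse embryonic stem cells with a knockdown of Smarcb1: Cdx2, Eomes, Elf5, Gata2, Gata3, Tfap2c, Tead4, Esx1, Plet1 and Ets2. They were chosen by symbol, and all 10 were found among the 55228 genes listed for each of 15 RNA-seq libraries. At 240 h of knockdown 3 of them were higher than in control cells (Cdx2, Esx1 and Tfap2c), 3 were lower (Tead4, Eomes and Plet1), 2 did not pass the test (Gata2 and Ets2) and 2 had too few reads for a test (Elf5 and Gata3). Of all genes tested on the same reads 9.87% were higher and 8.15% lower. Cdx2 had enough reads for a test only because of the 240 h knockdown libraries, in which it was high.

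The cells were the line 81K1, based on OG2, with a doxycycline-dependent shRNA in the Rosa26 locus. The shRNA targets Smarcb1, which belongs to the core of BAF, a complex that remodels chromatin. Control cells (ctrl) carried the same construct without doxycycline and were sampled at 48 h and 240 h. Knockdown cells (kd) received 1 µg/ml doxycycline daily and were sampled at 48 h, 72 h and 240 h. All were grown on gelatine with serum and LIF, and each of the 5 groups had 3 libraries. The line is a single clone, and cells given doxycycline but lacking the shRNA were not analysed here, so effects of the drug and of the knockdown cannot be told apart. The labels do not say whether replicates were separate cultures, so p-values measure the spread between these libraries, which may be technical. The libraries held 11074998 to 14515300 reads. One library stood apart, 48 h kd replicate 2, with 2.53% of reads on mitochondrial genes against 0.507% to 1.95% in the others, and calls at 48 h are also given without it.

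Smarcb1 itself checked the labels. It lay at 3.31 to 3.93 FPKM (fragments per kilobase of gene, scaled to library size) over the 6 control libraries and at 0.503 to 0.820 FPKM over the 9 knockdown libraries, so no knockdown library reached a control. On recovered reads its log2 fold change was -2.50 at 48 h, -2.68 at 72 h and -2.38 at 240 h (adjusted p = 1.2e-07, 7.0e-18 and 5.8e-14 by limma). The stem cell label was checked with Pou5f1, Sox2 and Nanog. Pou5f1 had a mean of 260 to 311 FPKM in the groups other than 240 h kd and 244 FPKM there. Every library had at least 5975 reads of Sox2 and 5500 of Nanog. Of 10 stem cell markers tested, however, Klf4, Tbx3, Esrrb and Zfp42 were lower at 240 h, and Klf4 and Tbx3 also at 48 h and 72 h. Dppa5a was higher at 72 h.

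In the mouse embryo the outer cells of the morula become trophectoderm and the inner cells keep the pluripotent state. Tead4, a DNA-binding partner of the Hippo pathway effector Yap1, acts early in that choice, and Cdx2, a caudal homeobox factor, is a central regulator downstream of it. Gata3 is turned on in trophectoderm alongside Cdx2, while Eomes (a T-box factor), Elf5 and Ets2 (ETS-domain factors) and Tfap2c (an AP-2 factor) sustain the trophoblast stem cells grown from it. Gata2 is prominent in trophoblast giant cells, Esx1 is an X-linked homeobox gene of the labyrinth and spongiotrophoblast, and Plet1 encodes a surface protein of trophoblast progenitors. Several members also serve other cells: Tfap2c acts in germ cells, Eomes in mesendoderm and Gata2 in blood progenitors. In stem cells in culture the Elf5 promoter is known to be methylated.

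Promoter windows from 250 bases before to 50 bases after the transcription start (RefSeq, GRCm38.p6) matched 8 of the 10 members. Windows of 4 are shown, since Cdx2 and Esx1 were the members that rose most at 240 h, and Eomes and Plet1 fell together. Capitals mark the only matches to the motifs searched in these 4 windows. The windows are chr5:147307200-147307499 (minus strand) for Cdx2, chrX:137120277-137120576 (minus strand) for Esx1, chr9:118477939-118478238 (plus strand) for Eomes and chr9:50494275-50494574 (plus strand) for Plet1, each written 5′ to 3′ along the gene.
Cdx2: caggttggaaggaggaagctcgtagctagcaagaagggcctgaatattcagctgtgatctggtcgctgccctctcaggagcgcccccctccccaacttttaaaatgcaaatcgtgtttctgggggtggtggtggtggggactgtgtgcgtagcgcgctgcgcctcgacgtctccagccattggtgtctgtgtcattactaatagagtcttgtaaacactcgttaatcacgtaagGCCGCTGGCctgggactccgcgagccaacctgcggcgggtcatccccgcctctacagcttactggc
Esx1: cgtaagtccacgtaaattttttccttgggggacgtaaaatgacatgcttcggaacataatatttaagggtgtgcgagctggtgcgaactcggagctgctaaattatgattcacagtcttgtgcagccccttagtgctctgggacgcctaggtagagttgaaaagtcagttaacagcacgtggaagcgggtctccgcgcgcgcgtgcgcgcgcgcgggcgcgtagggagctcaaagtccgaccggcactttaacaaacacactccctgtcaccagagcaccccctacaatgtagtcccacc
Eomes: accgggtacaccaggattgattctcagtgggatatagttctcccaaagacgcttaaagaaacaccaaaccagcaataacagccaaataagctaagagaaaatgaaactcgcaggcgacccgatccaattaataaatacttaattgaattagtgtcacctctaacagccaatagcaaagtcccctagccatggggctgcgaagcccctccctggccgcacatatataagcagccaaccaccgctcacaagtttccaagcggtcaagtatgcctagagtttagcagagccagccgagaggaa
Plet1: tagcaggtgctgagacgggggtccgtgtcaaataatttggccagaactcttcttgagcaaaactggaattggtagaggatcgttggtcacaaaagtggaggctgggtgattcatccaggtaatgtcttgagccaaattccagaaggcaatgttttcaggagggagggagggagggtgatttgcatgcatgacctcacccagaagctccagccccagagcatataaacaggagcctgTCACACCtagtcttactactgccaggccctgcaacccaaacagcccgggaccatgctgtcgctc
The motifs were those of the factor families among the members, each searched on both strands. The TEAD factors were searched as GGAATG. The zinc finger factors of the GATA family were searched as AGATAA. Caudal homeobox factors (CDX) were searched as TTTATG, and AP-2 factors as GCCNNNGGC. The T-box family was searched as GGTGTGA, and ETS-domain factors as CCGGAA. The Cdx2 window held the AP-2 motif 16 to 8 bases before the start, and the Plet1 window held the T-box motif on the opposite strand 14 to 8 bases before the start. Neither match was particular to these genes. Among member windows not shown, the T-box motif occurred for Elf5 and Gata2, and the AP-2 motif for Gata2 and Gata3. Among all 32851 windows, 16.6% held the AP-2 motif and 3.98% the T-box motif. The other motifs occurred in 14.7% (TEAD), 11.2% (GATA), 11.9% (CDX) and 14.9% (ETS) of windows. These are matches of letters, and no binding was measured in these libraries.

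The deposited FPKM divide by the whole span of a gene, introns included, so a long gene such as Tead4 has a low FPKM in spite of many reads. Levels of different members were therefore compared as reads per kilobase of exon, scaled to library size. The recovered reads may include reads in introns and in overlapping genes. This scale can therefore raise genes with long introns, such as Tead4, whose span was 21.3 times its exons against 2.45 times for Tfap2c. The places of different genes are thus approximate. On that scale the order in the 48 h controls was Tfap2c (21.5 ± 0.954, SD), Tead4 (11.02 ± 0.768), Ets2 (4.70 ± 0.0201), Plet1 (1.87 ± 0.357), Esx1 (1.42 ± 0.116), Eomes (1.12 ± 0.105), Gata2 (0.756 ± 0.0975), Gata3 (0.0482 ± 0.00585), Cdx2 (0.0396 ± 0.0399) and Elf5 (0.00925 ± 0.00815). The ranges of Plet1 and Esx1, of Gata3 and Cdx2, and of Cdx2 and Elf5 overlapped. In 240 h kd the order had become Tfap2c (28.3 ± 0.698), Ets2 (4.53 ± 0.260), Esx1 (4.09 ± 0.599), Tead4 (1.58 ± 0.235), Cdx2 (0.941 ± 0.0329), Plet1 (0.926 ± 0.190), Gata2 (0.908 ± 0.0806), Eomes (0.602 ± 0.0977), Gata3 (0.135 ± 0.0268) and Elf5 (0.00833 ± 0.0144). On that scale Tead4 thus moved from the second to the fourth place. Ets2 and Esx1, and likewise Cdx2, Plet1 and Gata2, had overlapping ranges in 240 h kd.

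**Figure D1:**
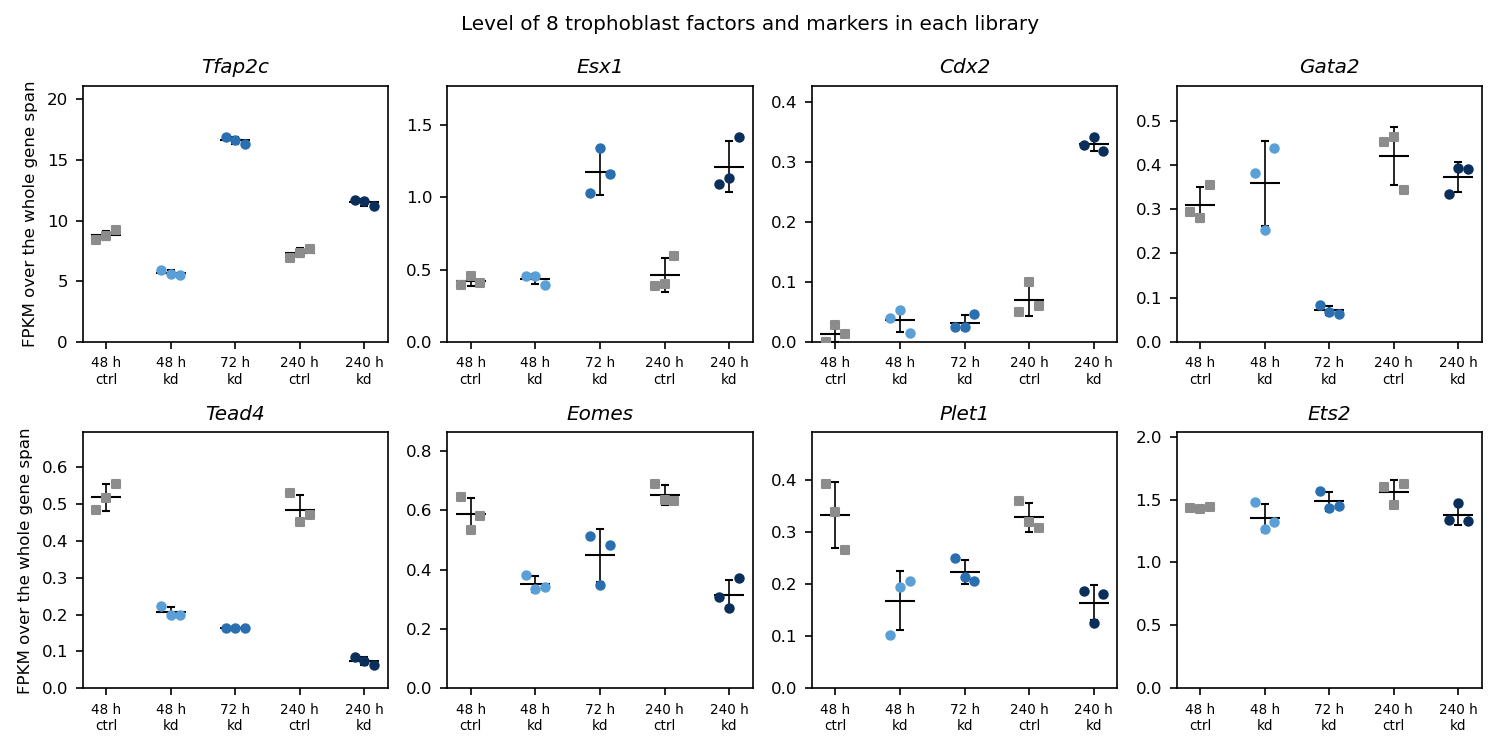
Level of 8 members in each library, in FPKM over the whole gene span (vertical axis, from 0, with a scale of its own for each gene), by group (horizontal axis). Squares are ctrl and circles kd libraries, and black bars give the mean ± SD of 3 libraries. Tead4 stands at 0.452 to 0.555 FPKM in all control libraries and at 0.0643 to 0.0862 FPKM in 240 h kd, whereas Tfap2c lies below its controls at 48 h and above them at 72 h and 240 h.

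Knockdown and control were compared with limma in 2 ways. The first was on log2(FPKM + 0.1) for genes averaging 0.5 FPKM or more, which left out most members. The second was on reads recovered from the FPKM (voom) for genes averaging 10 reads or more. Genes counted as called had an adjusted p under 0.05 with an absolute log2 fold change above 0.58. In bulk RNA, fewer cells with a transcript and less transcript per cell cannot be told apart. At 48 h the first test called 1 of 2 tested members, Tfap2c, against 3.99% of all genes tested. The second called 4 of 7, all lower (Tead4, Plet1, Eomes and Tfap2c), against 9.22% of all genes in either direction, 4.28% higher and 4.94% lower. At 72 h, against the same 48 h ctrl libraries, the first test called 2 of 4 members (background 13.5%) and the second 4 of 7 (background 22.6%), of which Tfap2c and Esx1 were higher and Tead4 and Gata2 lower (background 12.4% higher and 10.2% lower). At 240 h the first test called 2 of 3 members (background 8.91%), and the second 6 of 8 (background 18%), with 3 higher and 3 lower (background 9.87% and 8.15%). One of the 3 higher, Cdx2, passed the read minimum only through 240 h kd, here and against 72 h kd, so those counts are no independent measure against the background. Because 48 h and 72 h share their control libraries, the values of the 2 comparisons are not independent of each other. The 72 h kd libraries had no control of their own time here, so a change at 72 h cannot be told apart from time in culture or from that set of libraries. Within the knockdown, the change from 48 h to 72 h was called for 2 of 3 members in the first test (background 7.45%) and 3 of 7 in the second (background 13%), and that from 72 h to 240 h for 0 of 3, where Tfap2c passed the adjusted p but not the size threshold (-0.53, adjusted p = 8.9e-05 by limma, unadjusted p under 0.05 for 1 of the 3), and 3 of 8 (background 15.7% and 25.4%). The difference between the 240 h and the 48 h effect was called for 2 of 3 and 3 of 7 (background 5.82% and 10.4%). In the values that follow, changes are on the log2 scale of recovered reads unless stated. Groups that did not overlap in FPKM were common. This held for 41.6%, 65.2% and 53.1% of all genes tested on recovered reads at 48 h, 72 h and 240 h.

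**Figure D2:**
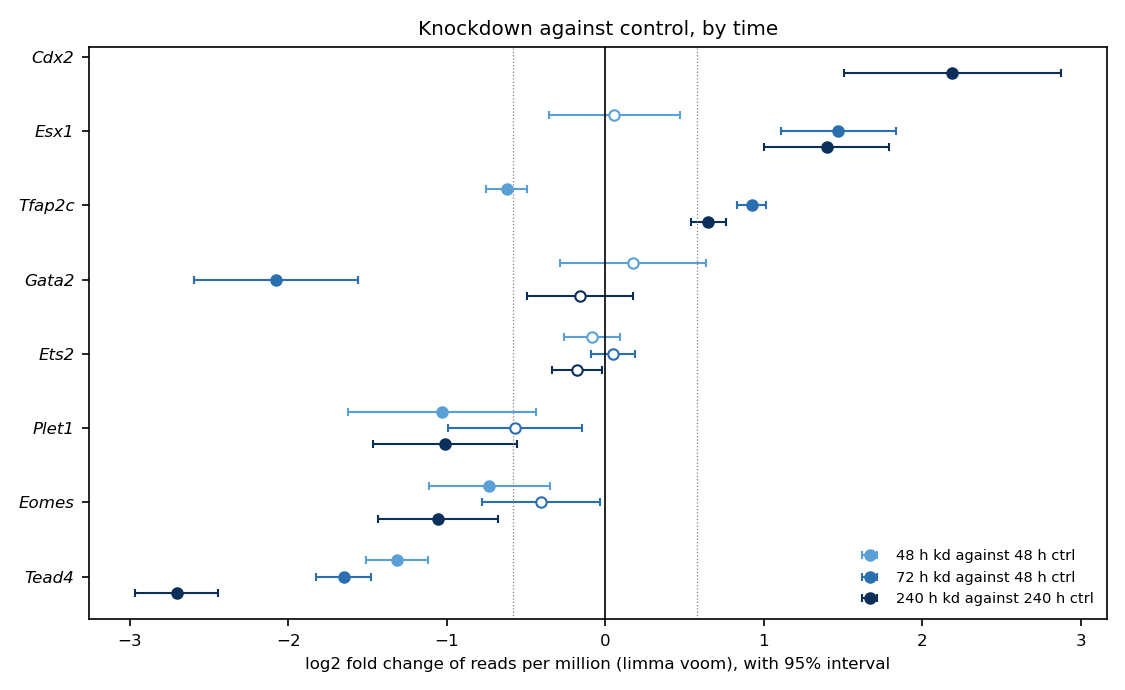
Log2 fold change of scaled reads between knockdown and control (horizontal axis, limma voom, bars give the 95% interval) for the 8 members with enough reads (vertical axis), by time. Filled points are called, open points are not, and dotted lines mark ± 0.58. Tead4 lies to the left at all 3 times (-1.32, -1.65 and -2.70), Tfap2c crosses from -0.62 to 0.92 and 0.65, and Gata2 departs from 0 at 72 h alone among its 3 points.

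Tead4, the Hippo-linked factor at the head of the trophectoderm programme, fell at each time, and most at 240 h. Reads were 507, 438 and 481 in the 48 h controls and 504, 426 and 461 in the 240 h controls. After knockdown they were 197, 179 and 168 at 48 h, 161, 154 and 167 at 72 h, and 87, 81 and 67 at 240 h. No knockdown library overlapped a control library, and the 240 h kd libraries lay below all others. The mean FPKM was 40.0% of control at 48 h and 15.4% of control at 240 h. The log2 fold change was -1.32 (SE 0.0900, adjusted p = 9.3e-07 by limma) at 48 h, -1.65 (SE 0.0844, adjusted p = 3.2e-14) at 72 h and -2.70 (SE 0.125, adjusted p = 8.9e-12) at 240 h. Within the knockdown Tead4 fell again from 72 h to 240 h, by 1.15 (SE 0.125, adjusted p = 5.1e-09 by limma), while from 48 h to 72 h the difference of -0.33 stayed under the size threshold (adjusted p = 0.0128). The effect at 240 h exceeded that at 48 h, with a difference between the effects of -1.39 (SE 0.156, adjusted p = 4.6e-06). The gene (ENSMUSG00000030353.15) lies at chr6:128224288-128300823 of mm10 on the minus strand and overlaps Gm21893, which had at most 1 read in any library.

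The Hippo and Tead genes around it were tested in full, 18 of 18 listed. The number called was 1 at 48 h, 3 at 72 h and 3 at 240 h, where 9.22%, 22.6% and 18% of all genes tested were called. At 48 h the called gene was Amot, a Yap1-binding junctional protein, which fell by 0.79. Without 48 h kd replicate 2 it fell by 0.84, and Vgll4, a Tead cofactor, was called too (-0.60). At 72 h Amot fell by 0.73, Nf2, an upstream activator of the kinase cascade, rose by 0.65, and Tead3, a paralog of Tead4, rose by 0.69. At 240 h Tead3 rose by 0.66 and Rbpj, the Notch pathway DNA-binding factor, rose by 0.60, whereas Wwtr1, which encodes the Yap1 paralog Taz, fell by 0.63. The median log2 fold change of the list was -0.06, 0.12 and 0.19 at the 3 times, against 0.03, -0.05 and 0.03 over all genes with a read. Tead3 had 50 to 65 reads in the 240 h controls and 84 to 112 in 240 h kd.

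Cdx2, the caudal homeobox regulator of trophectoderm, was close to the limit of detection until 240 h of knockdown. It had 0, 2 and 1 reads in the 48 h controls and 4, 8 and 5 in the 240 h controls. After knockdown it had 3, 4 and 1 reads at 48 h and 2, 2 and 4 at 72 h. In 240 h kd it had 28, 32 and 28 reads, well above every other library. The level there was 0.329 ± 0.0115 FPKM against 0.0702 ± 0.0267 FPKM in the 240 h controls (SD, 3 libraries each). The log2 fold change at 240 h was 2.19 (SE 0.325, adjusted p = 2.7e-05 by limma), and between 72 h kd and 240 h kd it was 3.19 (SE 0.340, adjusted p = 3.6e-09). Cdx2 passed the read minimum only through the 240 h kd libraries, so its presence among the tested genes depended on its being high there. It was not tested at 48 h or 72 h. The control libraries also differed by time, with 17 reads in all in the 240 h controls against 3 in the 48 h controls, a ratio of 5.45 per library size with a 95% counting interval of 1.58 to 29.0. The gene (ENSMUSG00000029646.3) lies at chr5:147300805-147307270 on the minus strand, with no overlapping gene.

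Gata3, the GATA factor of early trophectoderm, had too few reads for a test. It had 1 to 4 reads in each library up to 72 h, 3, 3 and 4 reads in the 240 h controls and 8, 6 and 8 in 240 h kd. The 240 h groups did not overlap, but their summed reads (22 and 10) gave a ratio of 2.00 per library size with a 95% counting interval of 0.909 to 4.73, which includes no change. Its span (ENSMUSG00000015619.10, chr2:9857078-9890034, minus strand) overlaps 3 antisense or neighbouring transcripts (Gm13256, 4930412O13Rik and 9230102O04Rik), each with at most 2 reads. Elf5 (ENSMUSG00000027186.14, chr2:103411688-103450989, plus strand), the ETS factor of committed trophoblast stem cells, had 0 to 2 reads in every library of every group. A count of 3 reads, the limit that a count of 0 allows, would amount to 0.00526 to 0.00689 FPKM for Elf5, depending on the library. Where Elf5 had 1 or 2 reads the limit is higher, so changes at or below that level were not detectable at this depth. Intervals and limits of this kind cover counting error only.

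**Figure D3:**
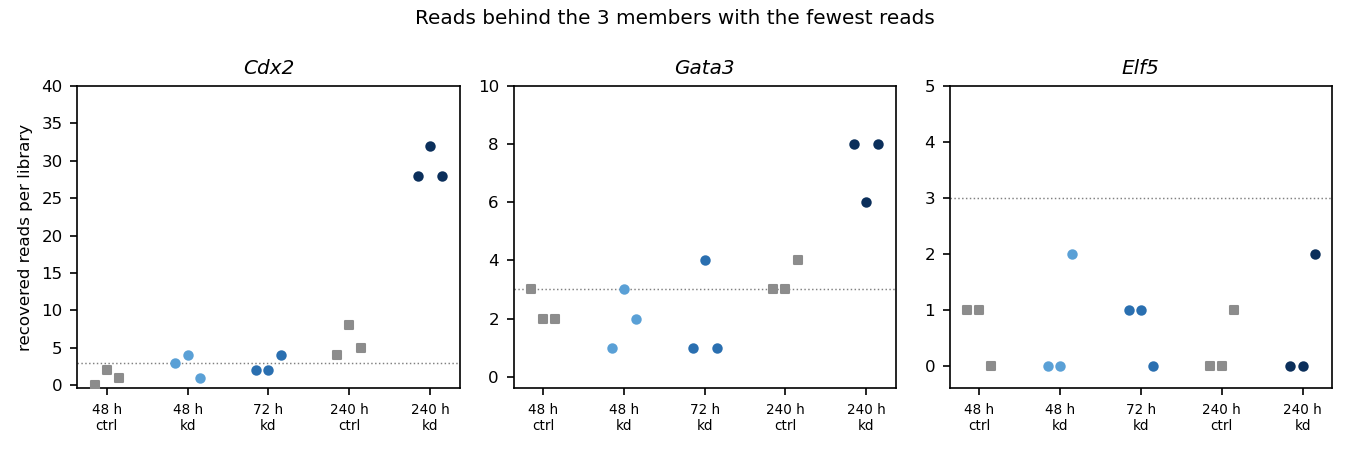
Recovered reads per library (vertical axis) of Cdx2, Gata3 and Elf5, by group (horizontal axis). Squares are ctrl and circles kd libraries, and the dotted line marks 3 reads. Cdx2 reaches 28 to 32 reads in 240 h kd and at most 8 elsewhere, Gata3 reaches 6 to 8 there and at most 4 elsewhere, and Elf5 stays at 0 to 2.

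Tfap2c, the AP-2 factor and the most abundant member, changed direction. It was at 8.43, 8.69 and 9.19 FPKM in the 48 h controls and at 5.94, 5.62 and 5.52 FPKM in 48 h kd. It then stood at 16.9, 16.7 and 16.3 FPKM in 72 h kd. In 240 h ctrl it was at 6.94, 7.36 and 7.69 FPKM and in 240 h kd at 11.7, 11.6 and 11.2 FPKM. All 48 h kd libraries lay below all controls, and all 72 h and 240 h kd libraries above them. On log2(FPKM + 0.1) the change was -0.61 (SE 0.0508, adjusted p = 0.00268 by limma) at 48 h, 0.92 (SE 0.0396, adjusted p = 5.8e-05) at 72 h and 0.64 (SE 0.0472, adjusted p = 0.000443) at 240 h. The difference between the 240 h and the 48 h effect was 1.26 (SE 0.0683, adjusted p = 4.0e-06). Within the knockdown Tfap2c rose by 1.53 from 48 h to 72 h (adjusted p = 0.000243), and the difference from 72 h to 240 h was -0.53 (adjusted p = 8.9e-05), under the size threshold. The controls differed by -0.26 between 240 h and 48 h (adjusted p = 0.0630). The 48 h change is close to the size threshold, and with a pseudocount of 1 FPKM it was -0.55 and no longer called. Tfap2c (ENSMUSG00000028640.11) lies at chr2:172549593-172558622 on the plus strand.

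Esx1, the X-linked placental homeobox gene, was higher at both later times. It was at 0.392, 0.459 and 0.409 FPKM in the 48 h controls and at 0.454, 0.459 and 0.392 FPKM in 48 h kd. In 72 h kd it was at 1.03, 1.34 and 1.16 FPKM. In 240 h ctrl it was at 0.385, 0.401 and 0.596 FPKM and in 240 h kd at 1.09, 1.13 and 1.42 FPKM. The 48 h groups overlapped, and the 72 h and 240 h knockdown libraries lay above all controls. On recovered reads the log2 fold change was 0.06 (95% interval -0.35 to 0.47, adjusted p = 0.858 by limma) at 48 h, 1.47 (SE 0.175, adjusted p = 1.0e-07) at 72 h and 1.40 (SE 0.187, adjusted p = 8.4e-06) at 240 h. On log2(FPKM + 0.1) Esx1 was called at 72 h (1.29, adjusted p = 0.000373) and at 240 h (1.24, adjusted p = 0.00423) as well. The effect at 240 h exceeded that at 48 h by 1.34 (SE 0.279, adjusted p = 0.00215 on recovered reads). Between 72 h kd and 240 h kd the difference was 0.04 (95% interval -0.23 to 0.32). The gene (ENSMUSG00000023443.13) lies at chrX:137115397-137122083 on the minus strand.

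Eomes, the T-box factor of trophoblast stem cells, was lower at 48 h and at 240 h. It had 70, 47 and 52 reads in the 48 h controls, 35, 31 and 30 in 48 h kd and 52, 34 and 51 in 72 h kd. At 240 h it had 68, 62 and 64 reads in ctrl and 32, 31 and 40 in kd. Scaled to library size, none of the knockdown libraries reached the controls of its comparison, although 72 h kd replicates 1 and 3 came close. The log2 fold change was -0.73 (SE 0.177, adjusted p = 0.00919 by limma) at 48 h, -0.40 (95% interval -0.78 to -0.03, adjusted p = 0.0558) at 72 h and -1.05 (SE 0.180, adjusted p = 0.000121) at 240 h. The 240 h and 48 h effects differed by -0.32 (95% interval -0.82 to 0.17), which did not pass the test. Reads were counted irrespective of strand, and the Eomes span (ENSMUSG00000032446.14, chr9:118478212-118486132, plus strand) overlaps the antisense gene Gm33460, which had 20 to 40 reads in the 240 h controls and 4 to 9 in 240 h kd. Reads of Eomes and of Gm33460 cannot be told apart where they overlap.

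Plet1, the surface marker of trophoblast progenitors, had fewer reads and a wider spread. It had 59, 41 and 33 reads in the 48 h controls, 13, 25 and 25 in 48 h kd and 35, 29 and 30 in 72 h kd. At 240 h it had 49, 43 and 43 reads in ctrl and 27, 20 and 27 in kd. The groups did not overlap in FPKM in any of the 3 comparisons, as was the case for 41.6%, 65.2% and 53.1% of all genes tested. The log2 fold change was -1.03 (SE 0.273, adjusted p = 0.0151 by limma) at 48 h, -0.57 (SE 0.206, adjusted p = 0.0194) at 72 h, just under the size threshold, and -1.01 (SE 0.215, adjusted p = 0.000943) at 240 h. The call at 48 h rested on single libraries, since the adjusted p was 0.0604 without 48 h ctrl replicate 1 and 0.0549 without 48 h kd replicate 1. The 240 h and 48 h effects differed by 0.02 (95% interval -0.72 to 0.76). Plet1 (ENSMUSG00000032068.14, chr9:50494525-50505482, plus strand) lies within the antisense gene Plet1os. The reads of Plet1os were as many or slightly more (44 to 53 in the 240 h controls and 23 to 27 in 240 h kd), so the 2 genes cannot be told apart in these counts.

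Gata2, the GATA factor of giant cells, was low at 72 h alone among the sampled times, the time without a control of its own. It had 53, 41 and 53 reads in the 48 h controls, 58, 39 and 64 in 48 h kd and 14, 11 and 11 in 72 h kd. At 240 h it had 74, 75 and 58 reads in ctrl and 58, 75 and 70 in kd. The 48 h and the 240 h groups overlapped, and the 72 h kd libraries lay below every other library. The log2 fold change was 0.17 (95% interval -0.29 to 0.63) at 48 h, -2.08 (SE 0.251, adjusted p = 1.3e-07 by limma) at 72 h and -0.16 (95% interval -0.49 to 0.18) at 240 h. Within the knockdown Gata2 fell by 2.25 from 48 h to 72 h (SE 0.298, adjusted p = 8.2e-05) and rose by 2.35 from 72 h to 240 h (SE 0.245, adjusted p = 2.4e-09). The gene (ENSMUSG00000015053.14) lies at chr6:88193891-88207032 on the plus strand. Ets2 (ENSMUSG00000022895.16, chr16:95702075-95721051, plus strand), the other ETS factor, differed little: its 15 libraries lay between 1.26 and 1.63 FPKM, and on log2(FPKM + 0.1) its change was -0.08 (95% interval -0.24 to 0.08) at 48 h, 0.05 (-0.06 to 0.16) at 72 h and -0.17 (-0.32 to -0.01, adjusted p = 0.0938 by limma) at 240 h. Each of these intervals ended within the size threshold of 0.58.

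Untreated cells changed little over the same period. Between 240 h ctrl and 48 h ctrl limma called 0 of 4 tested members on log2(FPKM + 0.1), with 1 (Tfap2c) at an unadjusted p under 0.05, and 0 of 7 on recovered reads, with 2 (Tfap2c and Gata2) at an unadjusted p under 0.05. Of these Tfap2c also passed the adjusted p on recovered reads (-0.26, adjusted p = 0.00924 by limma) but not the size threshold. The background was 0.475% and 1.36% of genes. Without a read minimum Cdx2 was called as higher at 240 h. Leaving out 48 h kd replicate 2 changed no call of a member at 48 h: 4 of 7 members were called on recovered reads, where 1443 of all 16051 genes tested were called, with Tead4 at -1.29, Plet1 at -1.17, Eomes at -0.69 and Tfap2c at -0.61. From 48 h kd to 72 h kd the same 3 members were called without it on recovered reads (Gata2 at -2.49, Tfap2c at 1.53 and Esx1 at 1.45).

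Several genes of differentiated trophoblast rose at 240 h. Of 25 listed genes 13 had enough reads, 7 were higher and 1 was lower, where 9.87% of all genes tested were higher and 8.15% lower. Gcm1, the switch to syncytiotrophoblast, had 2 to 6 reads in the 240 h controls and 49 to 55 in 240 h kd (log2 fold change 3.64, adjusted p = 2.7e-07 by limma). Hand1, a giant cell factor, had 2 to 8 and 40 to 56 reads (3.19, adjusted p = 2.0e-06). Peg10, an imprinted gene required for the placenta, had 3180 to 3237 and 14606 to 15434 reads (2.09, adjusted p = 3.3e-17). The epithelial keratin Krt18 had 69 to 101 and 353 to 364 reads (2.00), the matrix protease Mmp9 had 9 to 19 and 47 to 63 (1.94), and Krt7 had 5 to 9 and 27 to 32 (1.89). Krt8 was also higher, while Krt19 was lower at all 3 times. Gcm1, Hand1 and Krt7, and Dlx3, which was not called, passed the read minimum only through the 240 h kd libraries, so the 7 of 13 is no independent measure against the background. Over the 16 listed genes with any read the median change was 1.38, against 0.03 over all genes with a read. On log2(FPKM + 0.1) 5 of the listed genes were tested and 3 were higher (Peg10, Krt18 and Krt8), where 4.79% of all genes tested were higher and 4.12% lower. Keratin genes have pseudogene copies, between which reads can be split.

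Several markers of mature placental cells had no reads. Tpbpa and Tpbpb of the spongiotrophoblast, Prl3d1, Prl3b1 and Prl2c2 of giant cells, Synb and the placental cathepsins Ctsq and Ctsj had no read in any 240 h kd library, and 9 of the 25 listed genes were at 0 there. Others were read at a low level, such as Syna of the syncytiotrophoblast (2 to 3 reads per 240 h control library and 1 to 5 per 240 h knockdown library) and Plac1 (1 to 3 and 5 to 7 reads). At the earlier times genes of the differentiated list went in both directions. Peg10 rose by 0.56 at 48 h (adjusted p = 3.5e-06 by limma), under the size threshold. At 48 h 2 of 8 tested genes were lower, the keratin Krt19 by 2.30 and the cell cycle inhibitor Cdkn1c by 0.82 (-2.25 and -0.73 without 48 h kd replicate 2, both called). At 72 h 1 of 8 was higher, the receptor Flt1, by 0.70, and the same 2 were lower, Cdkn1c by 1.77 and Krt19 by 1.44. The background was 4.28% higher and 4.94% lower at 48 h, and 12.4% and 10.2% at 72 h. The summed FPKM of the list was 37.0 to 42.3 in the 240 h controls and 111 to 113 in 240 h kd, to which Peg10 gave 19.1 to 19.7 and 80.5 to 83.9 FPKM.

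Genes of the trophoblast stem state went in both directions. At 48 h 1 of 14 tested genes rose, Id2, an inhibitor of basic helix-loop-helix factors (0.92), and 1 fell, the Sox factor Sox21 (by 1.46). At 72 h 3 of 13 rose (Sox15 by 1.86, Arid3a by 0.84 and the proprotein convertase Furin by 0.60) and 5 fell (Bmp4 by 0.95, Sox21 by 0.88, Lgals3 by 0.87, and Pcsk6 and Satb1). At 240 h 2 of 15 rose, the transcriptional co-activator Cited1 (1.92) and Sox15 (0.94), and 4 fell: Sox21 (by 1.56), Satb1 (by 1.38), the growth factor Bmp4 (by 0.89) and the convertase Pcsk6 (by 0.76). Of all genes tested 4.28% rose and 4.94% fell at 48 h, 12.4% and 10.2% at 72 h, and 9.87% and 8.15% at 240 h. Sox21 was called as lower at all 3 times, whereas Bmp4, Satb1 and Pcsk6 had an adjusted p under 0.05 at 48 h too but changes (-0.55, -0.58 and -0.38) under the size threshold. Without 48 h kd replicate 2 the 48 h changes were 0.94 for Id2 and -1.25 for Sox21, both called, and Satb1 was called as well (-0.62). The median change of the list was -0.06, -0.29 and -0.17 at the 3 times, against 0.03, -0.05 and 0.03 over all genes with a read. The counts and medians include Fgfr2, whose listed span of 2960.9 kb overlaps many other genes. Its reads may come largely from those genes and say little of Fgfr2 itself.

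Paralogs of the members ranged widely in level. In the 48 h controls Tead1 averaged 2345 reads and Tead2 1163, while 6 of the 20 paralogs averaged under 10 reads. At 240 h 5 of 15 tested paralogs were higher: Ets1 (2.89), Gata1 (2.24), Gata6 (1.11), Tbx21 (0.67) and Tead3 (0.66), where 9.87% of all genes tested were higher. Gata1 was also higher at 72 h (0.88). Its call at 48 h (0.90, adjusted p = 0.0431 by limma) was lost without 48 h kd replicate 2 (0.80, adjusted p = 0.0800). Gata1 was the only paralog called at 48 h, of 13 tested. At 72 h 3 of 16 were higher: Gata1, Tead3 (0.69) and Cdx4 (1.31, having passed the read minimum only through 72 h kd). Another, Tfap2e, was lower (by 0.76). The background was 4.28% higher at 48 h, and 12.4% higher and 10.2% lower at 72 h.

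**Figure D4:**
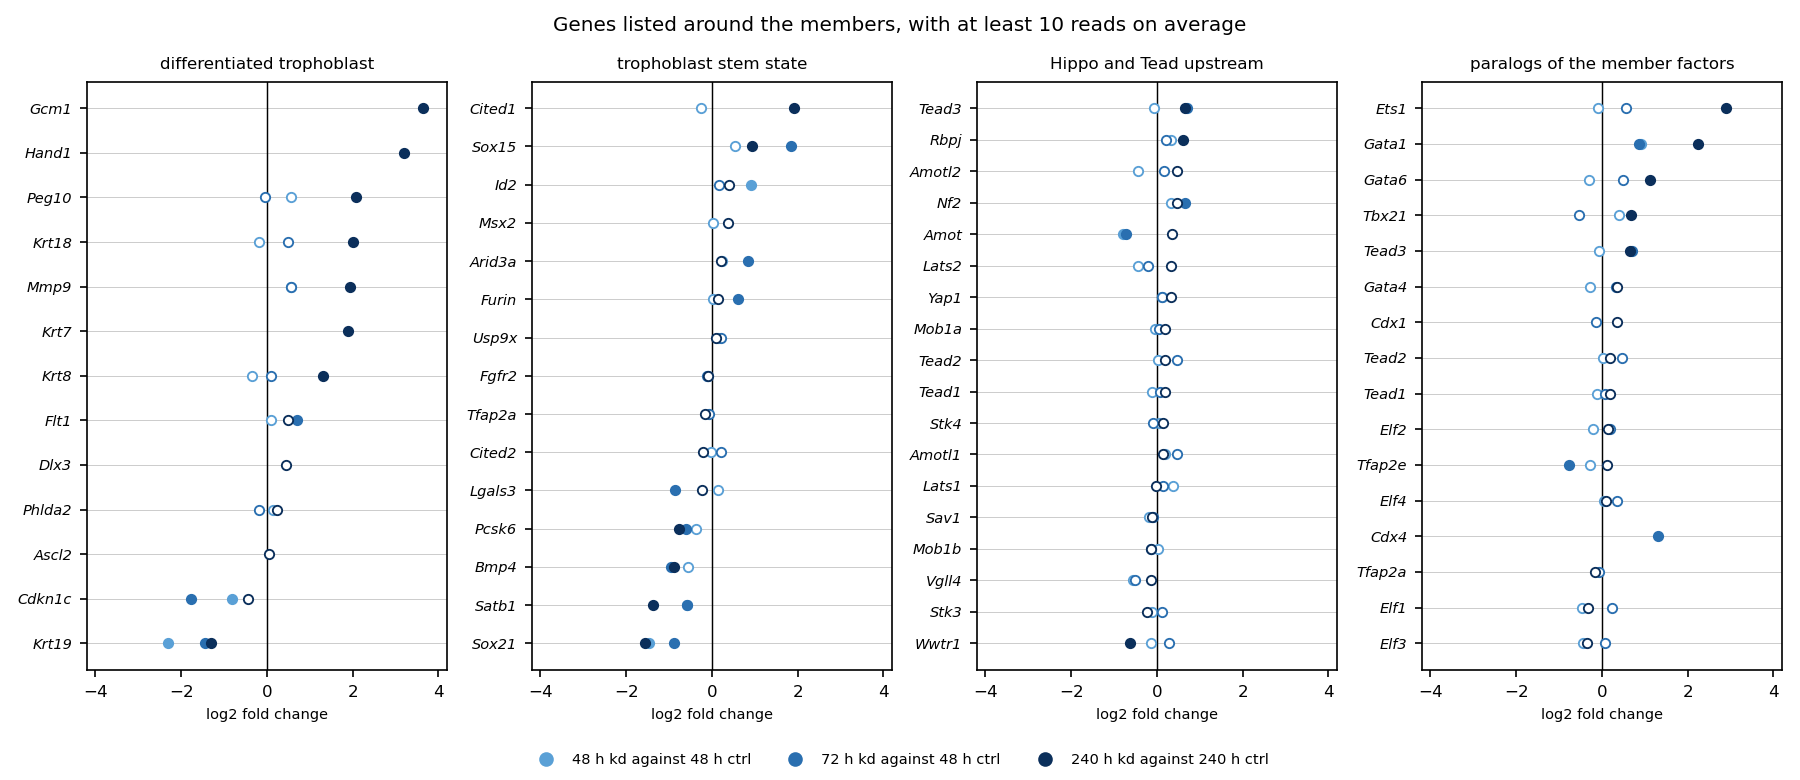
Log2 fold change of recovered reads (horizontal axes, limma voom) for listed genes averaging 10 reads or more (vertical axes, in order of the change at 240 h), by time. Filled points are called and open points are not. In the differentiated trophoblast panel Gcm1 (3.64) and Hand1 (3.19) stand highest at 240 h and Krt19 lies to the left at all 3 times, whereas the Hippo panel stays within 1 of 0.

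Markers of other cells moved with these genes at 240 h, and their part in the members' changes was not tested. Some moved at 48 h and 72 h too, such as Kit (-2.36 and -2.60), Grhl2 (-1.45 and -2.74) and Col1a1 (0.73 and 0.80). The counts below are for 240 h and stand beside 9.87% of all genes tested that were higher and 8.15% that were lower. Of 6 tested primitive endoderm genes 4 were higher (Pdgfra, Gata6, Amn and Dab2) and Sox7 was lower, with a summed level of 1.19 to 1.24 FPKM in kd against 0.999 to 1.18 FPKM in ctrl. Both tested mesoderm genes, Wnt3 and Mixl1, of 8 listed were higher (summed 0.980 to 1.18 against 0.591 to 0.713 FPKM). Of 4 tested fibroblast genes 3 were higher, Col1a1, Col1a2 and Twist1 (summed 2.92 to 3.54 against 1.84 to 2.22 FPKM). Wnt3 and Col1a2 passed the read minimum only through 240 h kd. Of 4 tested surface ectoderm genes Grhl2 and Ovol1 were lower (summed 1.40 to 1.55 against 1.41 to 1.46 FPKM). Germ cell genes split, with 4 of 8 higher (Nanos3, Dppa3, Ddx4 and Dazl) and 4 lower (Kit, Prdm1, Prdm14 and Dnd1), at a summed 28.5 to 29.1 against 23.2 to 23.8 FPKM. Of 10 tested stem cell markers Klf4, Tbx3, Esrrb and Zfp42 were lower, and the median change was -0.33, against 0.03 over all genes with a read. Their summed level was 1443 to 1494 FPKM in 240 h kd against 1428 to 1564 FPKM in the 240 h controls, more of it from Dppa5a (a mean of 822 and 701 FPKM) than from any other listed marker. None of the marker lists other than that of differentiated trophoblast had a defining gene at 0 in all 240 h kd libraries, apart from Gata5 among the paralogs. Several other markers were near the floor, however. In 240 h kd Krt5 averaged 0.333 reads, and Dcn, Lum and Trp63 averaged 0.667 each. The differentiated trophoblast list was also long (25 genes), and 10 of its genes were at 0 in the 240 h controls.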

How the data were processed

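RNA-seq was measured in 15 libraries. The authors aligned single reads to mm10 (GRCm38.p6) with STAR 2.7.0c and counted reads per gene in R, per the methods and the submitters' processing notes. The deposited FPKM values give 1 value per gene and library. The product of FPKM, whole gene span and a library total was a whole number of reads in 100% of cases above 0 (tolerance 0.001), and reads were counted irrespective of strand, with overlapping genes each given a shared read. Gene identifiers, strands and exon lengths came from GENCODE M21, which matched 53297 genes (96.5%).

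Groups came from the labels. Expression was tested mainly with limma 3.58.1 (R 4.3.3, with a variance trend) on log2(FPKM + 0.1) for genes averaging 0.5 FPKM or more, with Benjamini-Hochberg adjustment over all genes tested, two-sided, called at adjusted p under 0.05 and absolute log2 fold change above 0.58. Since this left out most members, limma voom on recovered reads (mean of at least 10 reads, library totals as scale) is given beside it. The 72 h kd libraries were set against 48 h ctrl, as in the study. The members, lists and tests were chosen with earlier results of these data known. Named are all members, Smarcb1, and called genes of the lists, with values for at most 6 per list and comparison. For each member called at 240 h the 3 genes of most similar pattern were taken, leaving out predicted and overlapping genes. Pou5f1, Sox2 and Nanog were named as a check of the cell type, and markers at 0 for completeness, outside this rule. A gene of the trophoblast stem list is not reported here and was left out of its counts. Medians over lists are from voom without a read minimum. An exact permutation test of 3 against 3 libraries was not used. On simulated data with 200 changed genes, 89.7% of 194, 95.8% of 190 and 94.2% of 191 tested were recovered on log2 FPKM for 48 h, 72 h and 240 h, and 98.5%, 99.5% and 99.5% of 200 on reads. Most of those 200 genes passed both minima, whereas most members did not pass the FPKM minimum. Recovery of the members, or of genes with few reads or a wide spread, was not tested separately. Alternatives were other pseudocounts, minima, scalings, controls, a replicate block and each library left out. Most of those on recovered reads, and the lists without 48 h kd replicate 2, were chosen after seeing the data. Python 3.11.15, pandas 2.3.3 and matplotlib 3.10.9 were used for tables and plots.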

Additional observations from a re-analysis of the deposited data

Results flagged for a closer look

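The effect of the knockdown differed between 240 h and 48 h for 3 members, by the interaction term of limma over the 12 libraries of both times. Tfap2c was below control at 48 h and above it at 240 h, with a difference between the effects of 1.26 on log2(FPKM + 0.1) (adjusted p = 4.0e-06) and 1.27 on recovered reads (adjusted p = 2.7e-09). For Tead4 the difference was -1.39 on recovered reads (adjusted p = 4.6e-06), a larger fall at 240 h. For Esx1 it was 1.20 on log2(FPKM + 0.1) (adjusted p = 0.00430) and 1.34 on recovered reads (adjusted p = 0.00215). On log2(FPKM + 0.1) 5.82% of all genes tested were called for this difference, and on recovered reads 10.4%.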

How the results depend on the processing

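Over 508 alternatives of 32 called results of the members, 504 kept the call and its direction, 4 lost the call and 0 reversed. The 4 were Plet1 at 48 h without 48 h ctrl replicate 1 (-0.88), without 48 h kd replicate 1 (-0.72) and on log2(FPKM + 0.01) with a minimum of 10 reads (-0.98), and Tfap2c at 48 h with a pseudocount of 1 FPKM (-0.55). The counts of called members on log2(FPKM + 0.1) depended on the minimum. At 48 h, 1 member became 0 with a pseudocount of 1, 3 without an FPKM minimum or rescaled to TPM, and 4 with a minimum of 10 reads or with voom. At 72 h, 2 became 4 under those same 4 settings, and 1 with a minimum of 2 FPKM. At 240 h, 2 became 6 under the 4 settings and 1 with a minimum of 2 FPKM. Between 72 h kd and 48 h kd, 2 became 1 with that minimum. Between 240 h kd and 72 h kd, 0 became 3 under the 4 settings and 1 on adjusted p alone. For the difference of the 240 h and 48 h effects, 2 became 4 without a minimum and 1 with a minimum of 2 FPKM. In these settings the number of members tested changed from 1 to 10. On recovered reads without a minimum, 1 member (Cdx2) in place of 0 was called between the controls. With each library left out in turn the counts were 1 to 1 (48 h), 2 to 2 (72 h), 2 to 3 (240 h), 0 to 0 (controls), 2 to 2 (72 h against 48 h kd), 0 to 0 (240 h against 72 h kd) and 2 to 2 (difference of effects) on log2(FPKM + 0.1), and 3 to 4, 4 to 5, 6 to 6, 0 to 0, 3 to 3, 3 to 4 and 3 to 3 on recovered reads. Ets2 at 72 h, not called, reversed with 240 h ctrl as control (-0.067 on log2(FPKM + 0.1), -0.0718 on reads), with all 6 ctrl libraries (-0.00966 and -0.0114) and with quantile normalization of the reads (-0.00724), and the cause was not tested.

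Replicate numbers recur in every group, but same-numbered libraries deviated together only weakly (correlations of -0.0993 to 0.119), so the numbers were not taken as pairs. With the replicate number as a block the counts of called members stayed at 1, 2 and 2 on log2(FPKM + 0.1) and at 4, 4 and 6 on recovered reads for 48 h, 72 h and 240 h, and no other count changed. Members under about 10 reads (Elf5, Gata3, and Cdx2 outside 240 h kd) were limited by depth.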

Other observations

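For each member called at 240 h, the genes of most similar pattern over the 15 libraries were named by Pearson's r of log2(FPKM + 0.1), as a description, since the libraries share groups and times. For Cdx2 they were Klhl13 (r = 0.980), Zfp981 (0.967) and Helz (0.965). For Tfap2c they were Tpd52 (0.974), Gpx4 (0.967) and Btg2 (0.954). For Esx1 they were Psap (0.965), Mfge8 (0.962) and Irf2bp2 (0.959). For Tead4 they were Fstl1 (0.993), Atp1b1 (0.991) and B3galnt1 (0.991). For Eomes they were Nid2 (0.936), Abcd3 (0.931) and Git1 (0.930). Plet1 had the least close matches, Dcaf12l1 (0.895), Limk2 (0.892) and Sox21 (0.879). The last of these is itself a gene of the trophoblast stem state list.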
